A study of Mus musculus with 24 samples.

Results

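The genes described here are H19, Igf2 and 8 further genes of the insulin-like growth factor (Igf) system, 10 genes of 26212 protein-coding and long non-coding genes counted. The members were chosen by their measured levels in fetal head against differentiated embryonic stem cells, so their differences between these tissues are given as a description, without a test. They comprise the non-coding RNA H19, the ligands Igf2 and Igf1, the receptor Igf1r, the binding proteins Igfbp2, Igfbp3, Igfbp4, Igfbp5 and Igfbp7, and the RNA-binding protein gene Igf2bp1. All 10 were kept by a filter that required 1 tissue or both to have a mean RPKM over 3, as were 10858 genes in all. RPKM is the number of tags in the exons of a gene, divided by exon length and by the unique tags of the library, where a tag is 1 sequenced read with a single place in the genome.

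RNA came from CCE, a feeder-independent 129/SvEv embryonic stem cell line that was differentiated for 5 days by removal of LIF and addition of 0.266 µM retinoic acid, and from FVB/N fetal heads (FH) at 14.5 dpc. CCE is 1 cell line whose preparations are technical replicates, FH is a mixture of tissues, and separate animals were not stated for it, so the spread between preparations may be technical. After RiboMinus depletion of ribosomal RNA CCE was represented by 4 and FH by 3 cDNA preparations. Sequencing of each at Vienna-IMP and at Nijmegen gave 8 CCE and 6 FH libraries of 920424 to 2473448 unique tags. In 4 preparations the RNA was hydrolysed (CCE1h, CCE2h, FH1h, FH2h) and in 3 the cDNA was sheared (CCE1s, CCE2s, FH1s). Both came from the same depleted RNA where the number is the same, and FH2h alone had 2 rounds of depletion. The study held an FH lane with an unlike tag composition to be most likely a technical outlier. By the order of its lane list this is FH1h at Vienna-IMP, which was kept in all values here. One hydrolysed Ribo-Zero library per tissue was made from separate RNA, with 28708715 unique tags in CCE and 48426051 in FH, and values from it have no replicate.

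IGF2 and IGF1 are secreted growth factors that signal through the IGF1 receptor. The IGF binding proteins carry the ligands outside the cell and can hold them back or deliver them, while the RNA-binding protein encoded by Igf2bp1 binds Igf2 and H19 RNA among others. H19 and Igf2 are neighbours in 1 imprinted cluster. Igf2 is transcribed from the paternal and H19 from the maternal chromosome, under shared enhancers and an imprinting control region upstream of H19, and both are known for high levels in the fetus, above all in mesoderm and endoderm. The tags were not separated by parental allele or by strand.

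The labels of the tissues were set beside lists of marker genes. Of 9 primitive endoderm markers 8 were lower in FH (limma, adjusted p under 0.05), and their summed level was 262 to 333 RPKM in the CCE preparations and 76.0 to 90.9 RPKM in FH. Gata4, a defining factor of that lineage, was at 10.1 to 16.1 RPKM in CCE and at 0 in the FH preparations. The other lists were mostly higher in FH, with 6 of 7 neural, 6 of 7 mesenchyme and skeleton, 4 of 5 skeletal muscle, 3 of 4 erythroid and 3 of 3 endothelium markers, and the muscle factors Myod1 and Myog were at 0 in every CCE preparation. Of the choroid plexus markers Ttr was higher and Folr1 lower in FH. In the same fit 20.3% of all genes were called higher and 34.0% lower in FH. Most of the called markers passed the filter only through the tissue where they were higher. In CCE these were Gata4, Gata6, Foxa2, Lama1 and Folr1. In FH they were Dcx, Neurod1, Col1a2, Col2a1, Prrx1, Postn, Myod1, Myog and Myh3, and every called erythroid and endothelium marker. Their p-values, and the counts of the lists that rest on them, are therefore not independent of the filter. The part of these cell types in the levels below was not tested, and in bulk RNA fewer cells of a type and less RNA per cell cannot be told apart.

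The replicate numbers of the hydrolysed libraries did not match between the locations. Across 7904 genes the log2 ratio of CCE1h to CCE2h at Vienna-IMP had a correlation of -0.65 with that at Nijmegen, and across 7970 genes the ratio of FH1h to FH2h had one of -0.49. For the sheared pair CCE1s and CCE2s it was 0.64 across 6555 genes. The genes are not independent replicates, and these values are descriptions. The 2 hydrolysed preparations of a tissue may therefore be exchanged at 1 location, which would blur the values per preparation, and the libraries with the second round of depletion cannot then be named with certainty. Exchanging the numbers moved the log2 difference between tissues by at most 0.07 in any member, and Igf1r preparations, apart as numbered, then overlapped. The SD of Igf2bp1 in CCE went from 13.8 to 18.6 RPKM and that of Igfbp4 in FH from 13.1 to 80.7 RPKM.

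**Figure D1:**
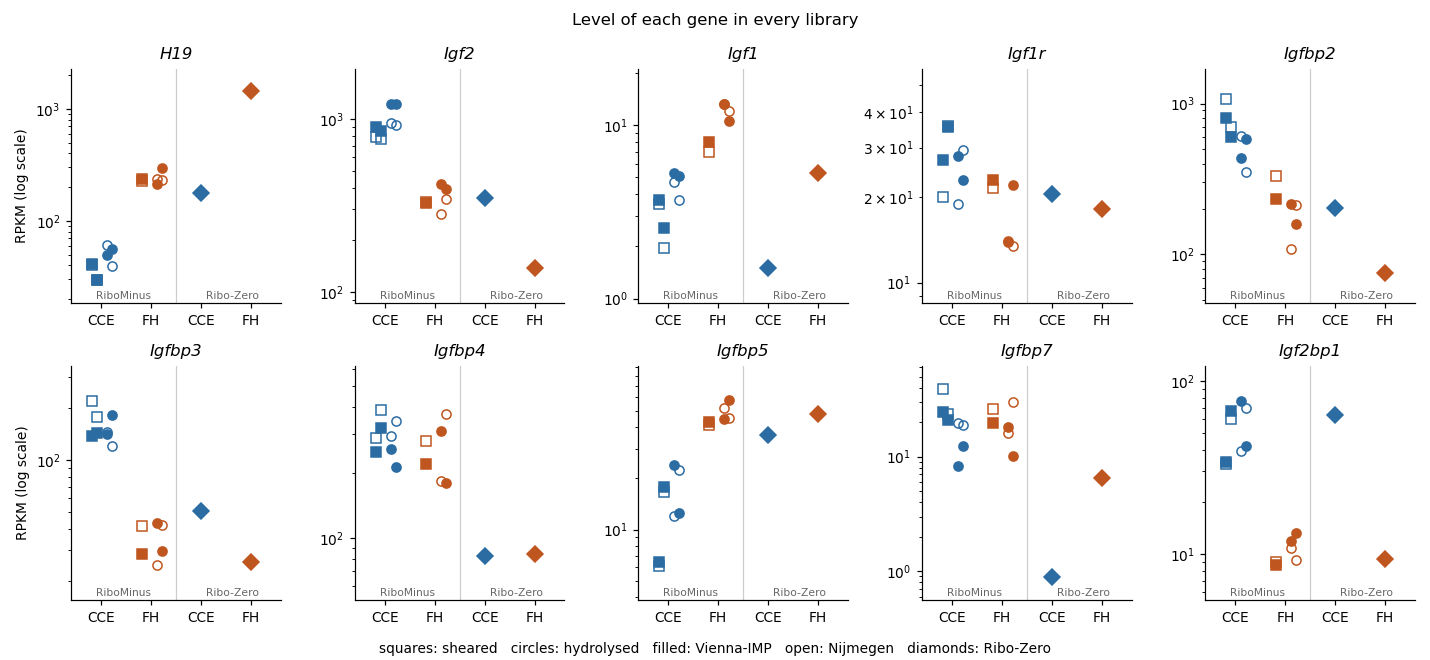
RPKM on a log axis of the 10 genes in each of the 16 libraries, with CCE in blue and FH in orange, sheared libraries as squares, hydrolysed ones as circles, Vienna-IMP filled, Nijmegen open and Ribo-Zero as diamonds. H19, Igf1 and Igfbp5 lay higher and Igf2, Igfbp2, Igfbp3 and Igf2bp1 lower in every FH than in every CCE RiboMinus library, while Igf1r, Igfbp4 and Igfbp7 overlapped.

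In the RiboMinus libraries 3 members were higher in every FH than in every CCE library, namely H19, Igf1 and Igfbp5, and 4 were lower, namely Igf2, Igfbp2, Igfbp3 and Igf2bp1. Among all 10858 genes that passed the filter, 14.3% lay wholly higher and 20.5% wholly lower in the 6 FH than in the 8 CCE libraries, and nothing is read from the members' counts since this contrast chose them. Over preparations, 3 members lay wholly higher and 5 wholly lower in FH, with Igf1r added, against 20.7% and 35.1% of all genes (55.7% in either direction). The scale matters for these differences. The median log2 difference of all genes, FH minus CCE, was -0.33 on the scale of unique tags, and exons took 66.2% to 73.4% of the tags in CCE against 45.7% to 62.6% in FH RiboMinus libraries. With libraries scaled to the upper quartile of gene counts the median was -0.02. A member whose difference lies near -0.33 therefore behaved as the median gene did.

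H19 is a spliced, polyadenylated RNA that codes for no known protein and carries the hairpin of Mir675 in its first exon. It lies at chr7:149761434-149764048 on the minus strand of mm9 (ENSMUSG00000000031.9), with 2372 exonic bases. Its level was 41.1, 53.6, 29.3 and 46.7 RPKM in CCE1s, CCE1h, CCE2s and CCE2h and 231, 225 and 264 RPKM in FH1s, FH1h and FH2h. The groups were far apart, with means of 42.7 ± 10.3 RPKM (SD, n = 4) in CCE and 240 ± 21.2 RPKM (SD, n = 3) in FH, 5.62-fold higher in FH. By single library it had 29.3, 41.0 and 60.2 RPKM (lowest, median, highest) in the 8 CCE and 215, 233 and 297 RPKM in the 6 FH libraries. H19 was the gene with rank 999 of 26212 by mean level in CCE and rank 31 in FH. Relative to the median gene, the log2 difference of 2.49 became 2.82.

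With Ribo-Zero, H19 stood at 177 RPKM in CCE (exact Poisson interval 174 to 180) and at 1430 RPKM in FH (1423 to 1437), where it held rank 2 of all genes. These 95% intervals cover counting error alone and leave out the spread between preparations. They take tags as independent, and since amplified copies of a molecule were not removed, they can be too narrow. The ratio of FH to CCE was 8.07 in these libraries. The level was 4.15 times the RiboMinus mean in CCE and 5.96 times in FH, while over all genes the median ratio of Ribo-Zero to RiboMinus was 0.762 in CCE and 0.656 in FH. H19 was thus the member that gained most with Ribo-Zero, and the RNA, the kit, the read length and the sequencing centre of the 2 methods cannot be told apart.

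The tags of H19 lay within the annotated transcript. In the FH RiboMinus libraries together, 1 tag fell in the 2 kb upstream and 16 in the 2 kb downstream of the gene, and none fell 2 to 4 kb upstream, where the imprinting control region is known to lie. Between there and Igf2, over 68624 bases, 49 CCE and 34 FH tags of the RiboMinus libraries were found, a mean density of 0.053 and 0.043 RPKM. The deeper FH Ribo-Zero library had 7 tags in the first 2 kb upstream and none in the next 2 kb. The small introns of H19, 243 bases in all, held 5.20 ± 0.74 RPKM (SD, n = 3) in FH and 0.60 ± 0.71 RPKM (SD, n = 4) in CCE, far below the exons. These densities rest on 13 tags in all FH and 2 tags in all CCE RiboMinus libraries.

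Along H19 the tags lay differently in sheared and hydrolysed RiboMinus preparations. Exon 1 (1315 bases) had 1.86 to 2.42 times the density of exon 5 (586 bases) in the 3 sheared preparations and 0.80 to 1.01 times in the 4 hydrolysed ones. The groups did not overlap. The exact two-sided permutation test gave p = 0.0571, the smallest that 4 against 3 preparations allow (adjusted p = 0.0714 over 10 such ratios). This test, here and below, exchanged preparations freely, although tissues differ and some preparations share depleted RNA. Its p-values therefore do not rest on independent samples. Both tissues showed this order, with 2.42 in FH1s against 0.90 and 0.98 in FH1h and FH2h. The Ribo-Zero libraries, which were hydrolysed, had ratios of 1.41 in CCE and 1.33 in FH, between the 2 RiboMinus groups.

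**Figure D2:**
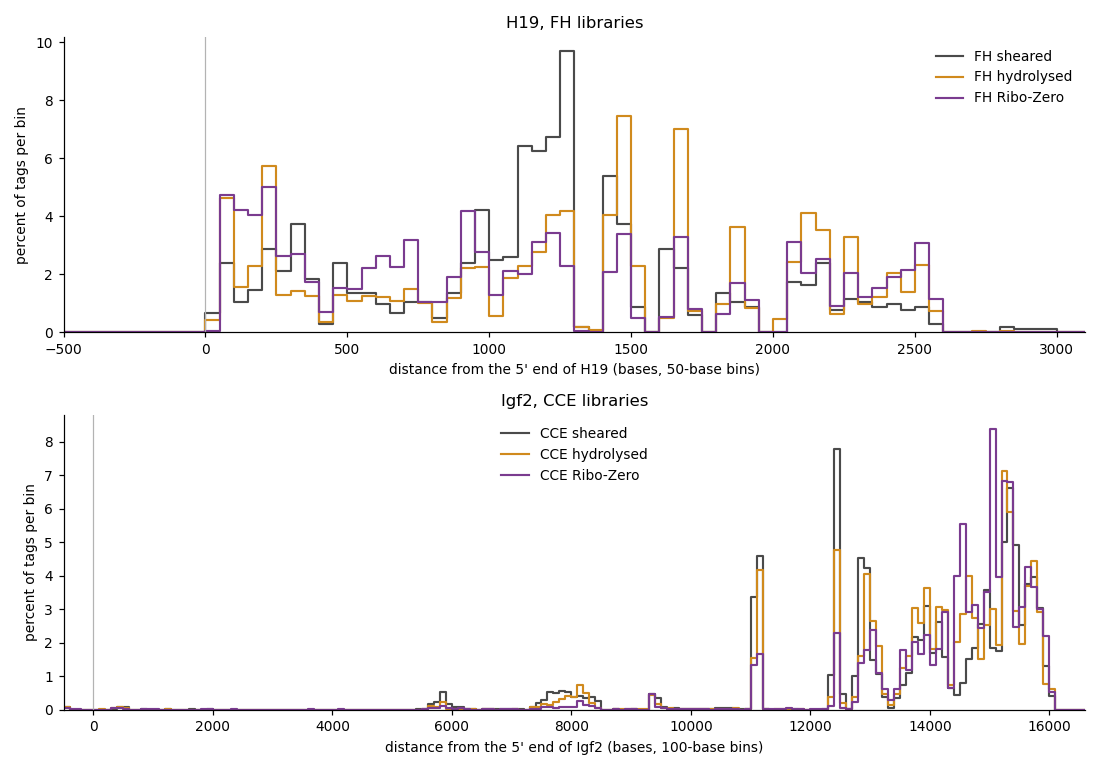
Share of tags in percent per 50-base bin along H19 in FH libraries (top) and per 100-base bin along Igf2 in CCE libraries (bottom), against the distance in bases from the 5′ end of the gene, for sheared (grey), hydrolysed (orange) and Ribo-Zero (purple) tags. Sheared tags of H19 were densest toward the end of exon 1, while tags of Igf2 lay mainly in the common exons toward the 3′ end with every method.

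The hairpin of Mir675 lies at chr7:149762969-149763052 (84 bases, minus strand, mm9), inside exon 1 of H19. It gives rise to 2 mature miRNAs, which are shown because the share of H19 tags over the hairpin differed between the preparations. The hairpin of Mir483, chr7:149840829-149840901, lies in an intron of Igf2 and is shown beside it. The sequences are those of RefSeq (GRCm38.p6) with the seed, bases 2 to 8, in capitals, and each matched the mm9 sequence of its host gene once. The 4 seeds differ from each other.
mmu-miR-675-5p: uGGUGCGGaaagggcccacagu
mmu-miR-675-3p: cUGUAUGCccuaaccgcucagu
mmu-miR-483-5p: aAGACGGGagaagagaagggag
mmu-miR-483-3p: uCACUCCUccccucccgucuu

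Tags with their midpoint in the Mir675 hairpin, 3.54% of the exonic length, made up 7.56%, 5.85% and 4.55% of the H19 tags in CCE1s, CCE2s and FH1s. In CCE1h, CCE2h, FH1h and FH2h they made up 0.98%, 0.27%, 1.21% and 1.48%. The sheared preparations were all above and the hydrolysed ones all below the share of the length, a comparison picked after its values were seen (exact two-sided permutation test, p = 0.0571, the smallest possible). The counts were small in CCE, with 22 of 291 tags in CCE1s (exact binomial 95% interval 4.80% to 11.2%) and 1 of 373 in CCE2h (0.0068% to 1.48%). The intervals of CCE2s (2.96% to 10.2%) and FH1s (3.36% to 6.00%) included the share of the length. In these sheared preparations the counts alone thus do not show an excess over it. The intervals of all hydrolysed RiboMinus preparations lay below it. In the Ribo-Zero libraries, also hydrolysed, the share was 2.30% of 12066 tags in CCE and 2.65% of 164257 in FH, above every hydrolysed RiboMinus preparation and below every sheared one. The hairpin of Mir483 held 4 tags in CCE and 4 in FH over all RiboMinus libraries, and 13 and 15 tags with Ribo-Zero. Its mean RiboMinus density was 4.07 RPKM in CCE and 4.40 RPKM in FH, beside 5.75 and 3.39 RPKM in the introns of Igf2. With Ribo-Zero the hairpin had 6.20 and 4.24 RPKM and the introns 2.49 and 1.64 RPKM. Tags of this length do not separate the primary transcript from a processed precursor.

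Igf2, the main growth factor of the fetus, lies at chr7:149836673-149852721 on the minus strand of mm9 (ENSMUSG00000048583.9), with 72624 bases between it and H19, and has 5493 exonic bases. It stood at 859, 1122, 808 and 1059 RPKM in CCE1s, CCE1h, CCE2s and CCE2h and at 330, 362 and 370 RPKM in FH1s, FH1h and FH2h. CCE was the higher tissue in every library, with 767, 914 and 1227 RPKM (lowest, median, highest) against 281, 339 and 422 RPKM in FH. The means were 962 ± 152 RPKM (SD, n = 4) and 354 ± 21.0 RPKM (SD, n = 3), 2.72-fold higher in CCE. Igf2 held rank 6 of all genes in CCE and rank 12 in FH, so it was among the highest genes of both. In the Ribo-Zero libraries the level was 348 RPKM in CCE (345 to 351) and 137 RPKM in FH (136 to 139), a 2.54-fold difference of the same direction at a lower level. Relative to the median gene, the log2 difference of -1.43 became -1.10. The antisense gene Igf2as covers part of the first exon of Igf2-003 on the other strand, and tags there cannot be assigned without strand.

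The H19 to Igf2 ratio within a library needs no scale between libraries. It was 0.036 to 0.048 in the 4 CCE preparations (mean 0.044 ± 0.0055, SD) and 0.622 to 0.714 in the 3 FH preparations (mean 0.678 ± 0.0492, SD). In the Ribo-Zero libraries it was 0.509 in CCE and 10.4 in FH. H19 was therefore below Igf2 in both tissues with RiboMinus and above it in FH with Ribo-Zero, and in each method the ratio was higher in FH.

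The annotation gives Igf2 several first exons, which follow separate promoters and join common coding exons. The 2 most distal ones, of Igf2-004 and Igf2-005, held 4 and 1 tags in all RiboMinus libraries. The first exon of Igf2-003 (chr7:149846837-149847210) stood at 93.0 ± 30.6 RPKM (SD, n = 4) in CCE and 23.1 ± 9.45 RPKM (SD, n = 3) in FH. The proximal first exon, of Igf2-001 (chr7:149843293-149843401), stood at 329 ± 107 RPKM in CCE and 75.2 ± 10.8 RPKM in FH. These 2 exons were thus lower in FH, as was the whole gene. The long first exon of Igf2-002 (chr7:149844269-149845394) stood at 147, 195, 230 and 159 RPKM in CCE1s, CCE1h, CCE2s and CCE2h and at 308, 102 and 151 RPKM in FH1s, FH1h and FH2h. The tissues overlapped, with means of 183 ± 37.4 RPKM (SD, n = 4) and 187 ± 108 RPKM (SD, n = 3), and the FH mean rests on FH1s, since both hydrolysed FH preparations lay below both hydrolysed CCE preparations. With Ribo-Zero this exon was at 18.3 RPKM in CCE and 13.6 RPKM in FH. It contains the shorter first exon of Igf2-201, whose tags cannot be told apart from it.

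As a share of the density of exon 3 of Igf2-001, which these transcripts share, the first exon of Igf2-002 had 5.72%, 7.77%, 7.02% and 8.89% in CCE1s, CCE1h, CCE2s and CCE2h and 28.9%, 14.6% and 17.6% in FH1s, FH1h and FH2h. The lowest FH preparation was above the highest CCE preparation, and the Ribo-Zero libraries had the same order with 5.83% in CCE and 11.5% in FH. For the first exons of Igf2-001 and Igf2-003 this share overlapped between the tissues, with 6.11% to 17.7% in CCE and 5.92% to 12.0% in FH for Igf2-001. The ratio of Igf2-001 to Igf2-002 first exons was 0.87 to 3.09 in CCE and 0.20 to 0.83 in FH, and 5.13 and 2.51 with Ribo-Zero. Tags that span a splice junction were not aligned, so short exons such as that of Igf2-001 (109 bases) are undercounted relative to long ones. How often a first exon lay wholly apart over all genes was not computed. The ratio of 5′ UTR to coding density also lay wholly higher in FH for Igfbp3. It was 0.48 to 0.98 in the CCE and 1.15 to 1.24 in the FH preparations. With Ribo-Zero Igfbp3 had the opposite order, 2.02 in CCE and 1.81 in FH. In this ratio all other coding members but Igf2 overlapped between the tissues. How often it lay wholly apart over all genes was not computed either, so nothing is read from these members. Whether the higher share in FH is particular to Igf2-002 was not tested.

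**Figure D3:**
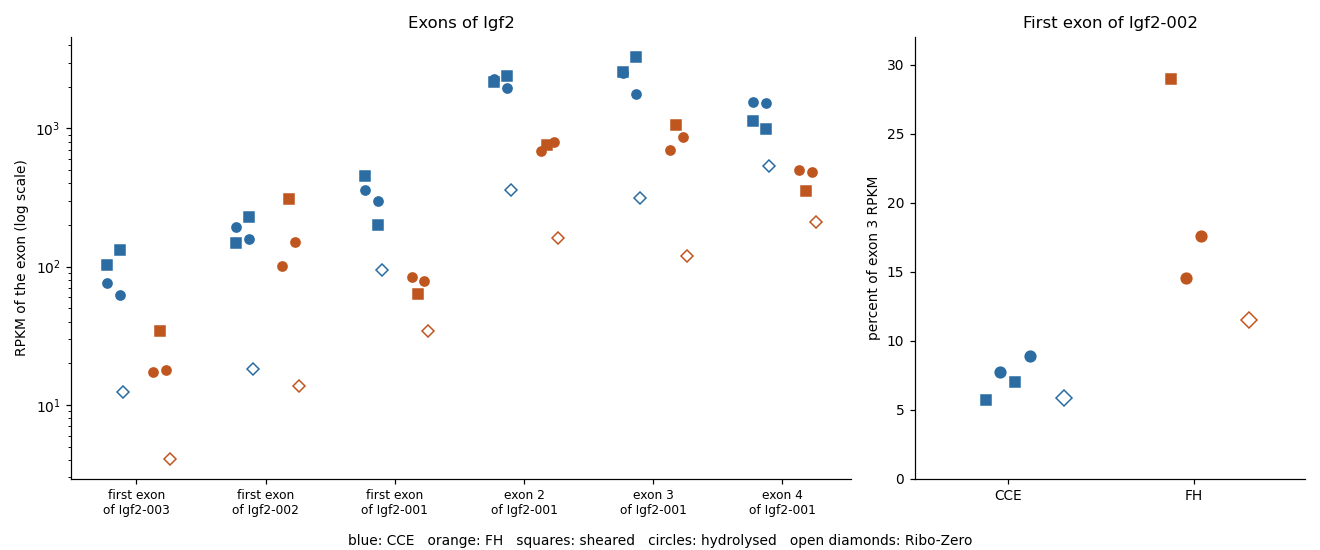
Left, RPKM on a log axis of 3 first exons and the common exons 2 to 4 of Igf2, and right, the first exon of Igf2-002 as percent of exon 3, in CCE (blue) and FH (orange), with 1 square or circle per RiboMinus preparation and an open diamond per Ribo-Zero library. The first exon of Igf2-002 was 5.72% to 8.89% of exon 3 in CCE and 14.6% to 28.9% in FH.

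The 250 bases upstream of H19 and of the Igf2-001 and Igf2-002 first exons are shown because the H19 to Igf2 ratio and the share of the Igf2-002 first exon were higher in FH. They are read from mm9 in the direction of transcription and end just before the annotated start. Capitals mark GGGCGG, known to be bound by Sp1 family factors, as well as the letters ATTGG, the reverse complement of the CCAAT box. The motif TATAAA was searched too, and all searches covered both strands.
H19, chr7:149764049-149764298, minus strand: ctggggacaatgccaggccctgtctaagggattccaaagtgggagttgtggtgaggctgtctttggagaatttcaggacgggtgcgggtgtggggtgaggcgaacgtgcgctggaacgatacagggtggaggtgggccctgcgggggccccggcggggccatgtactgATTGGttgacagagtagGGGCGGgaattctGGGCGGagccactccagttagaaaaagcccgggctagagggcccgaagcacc
Igf2-001, chr7:149843402-149843651, minus strand: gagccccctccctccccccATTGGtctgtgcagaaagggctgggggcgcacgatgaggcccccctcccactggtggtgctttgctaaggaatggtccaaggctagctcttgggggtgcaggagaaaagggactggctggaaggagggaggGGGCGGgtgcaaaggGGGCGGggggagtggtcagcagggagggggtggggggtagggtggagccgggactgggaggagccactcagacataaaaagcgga
Igf2-002, chr7:149845395-149845644, minus strand: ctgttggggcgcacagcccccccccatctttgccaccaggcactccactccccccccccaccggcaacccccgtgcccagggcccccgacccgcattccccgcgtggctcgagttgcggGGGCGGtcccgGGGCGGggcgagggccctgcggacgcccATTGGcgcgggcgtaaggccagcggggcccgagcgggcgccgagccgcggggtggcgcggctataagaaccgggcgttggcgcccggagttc

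Each of the 3 windows held 2 copies of GGGCGG and 1 of CCAAT, and none held TATAAA. The window upstream of the Igf2-003 first exon, not printed, held 1 CCAAT, no GGGCGG and no TATAAA. In H19 the copies of GGGCGG began 65 and 52 bases upstream of the start, in Igf2-001 100 and 85 bases and in Igf2-002 131 and 120 bases. Of the 250-base windows upstream of all 26212 genes, 37.2% held GGGCGG, 34.6% had the CCAAT box and 12.1% the motif TATAAA. The GC content was 62.4% for H19, 66.0% for Igf2-001, 77.6% for Igf2-002 and 46.4% for Igf2-003. A match is a description of the letters and shows no binding.

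Igf1, the second ligand, was low in both tissues and higher in FH. It lies at chr10:87321010-87399792 and stood at 3.65, 5.08, 2.24 and 4.28 RPKM in CCE1s, CCE1h, CCE2s and CCE2h and at 7.52, 13.2 and 11.3 RPKM in FH1s, FH1h and FH2h. The means of 3.81 ± 1.20 RPKM (SD, n = 4) and 10.7 ± 2.90 RPKM (SD, n = 3) differed 2.80-fold. The Ribo-Zero libraries gave 1.503 RPKM (1.36 to 1.65) in CCE and 5.29 RPKM (5.09 to 5.50) in FH, a 3.52-fold difference. The coding exons of Igf1 had 27.8 RPKM in CCE and 57.8 RPKM in FH, far above the 3′ UTR with 2.68 and 9.18 RPKM, and the 3′ UTR made up 6316 of its 9921 exonic bases.

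The receptor gene Igf1r, at chr7:75097713-75371484, overlapped between the tissues by library and not by preparation. It had 18.98, 27.6 and 35.7 RPKM (lowest, median, highest) in the CCE and 13.5, 17.8 and 23.1 RPKM in the FH libraries, with means of 27.9 ± 5.23 (SD, n = 4) and 18.05 ± 4.20 RPKM (SD, n = 3) over preparations. The log2 difference of -0.61 was -0.28 relative to the median gene. With Ribo-Zero the levels were 20.6 RPKM in CCE (19.8 to 21.4) and 18.2 RPKM in FH (17.6 to 18.8). Their log2 difference of -0.17 lay above the median of -0.55 of all genes in that pair. Relative to the median gene Igf1r was thus lower in FH with RiboMinus and higher with Ribo-Zero. Its 269296 intronic bases had 0.48 ± 0.15 RPKM in CCE and 0.88 ± 0.25 RPKM in FH, with the highest CCE preparation at 0.599 and the lowest FH preparation at 0.598 RPKM, so the ranges just met. The intronic density was 1.13% to 2.37% of the coding density in the CCE and 2.57% to 7.20% in the FH preparations, and 3.41% and 7.98% in the Ribo-Zero libraries.

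The binding proteins split. Igfbp2, at chr1:72871077-72899048, was the highest of them in CCE with 349, 607 and 1067 RPKM (lowest, median, highest) and had 108, 215 and 330 RPKM in FH. No FH library reached the lowest CCE library, though the margin was narrow. The means were 626 ± 201 RPKM (SD, n = 4) and 212 ± 59.7 RPKM (SD, n = 3), 2.95-fold higher in CCE, and the Ribo-Zero levels of 202 and 75.7 RPKM differed 2.67-fold the same way.

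Igfbp3, at chr11:7106089-7113926, encodes the main carrier of IGFs in blood. It stood at 166, 142, 161 and 146 RPKM in CCE1s, CCE1h, CCE2s and CCE2h and at 34.8, 35.1 and 35.8 RPKM in FH1s, FH1h and FH2h. Its means differed 4.36-fold, with 154 ± 11.3 RPKM (SD, n = 4) in CCE and 35.2 ± 0.48 RPKM (SD, n = 3) in FH. The small FH spread did not hold otherwise, since single FH libraries ran from 24.6 to 43.0 RPKM and the SD was 7.45 RPKM with the hydrolysed numbers exchanged. With Ribo-Zero the levels were 50.8 RPKM in CCE and 25.5 RPKM in FH, a smaller difference of 1.99-fold.

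Igfbp5, next to Igfbp2 at chr1:72904506-72921458 but on the other strand, encodes a binding protein found in muscle, bone and skin. Its level was 6.36, 19.4, 17.2 and 18.2 RPKM in CCE1s, CCE1h, CCE2s and CCE2h and 42.0, 47.8 and 51.8 RPKM in FH1s, FH1h and FH2h. CCE1s was low at both locations, with 6.48 and 6.14 RPKM. The means were 15.3 ± 6.02 (SD, n = 4) and 47.2 ± 4.89 RPKM (SD, n = 3), 3.09-fold higher in FH, and the log2 difference of 1.67 ran from 1.32 to 1.81 when single preparations were left out. With Ribo-Zero the tissues were closer, with 36.0 RPKM in CCE (35.1 to 36.9) and 47.6 RPKM in FH (46.8 to 48.4), 1.32-fold.

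Igfbp4 and Igfbp7 did not separate the tissues. Igfbp4, at chr11:98902558-98913969, had 213, 293 and 389 RPKM (lowest, median, highest) in CCE and 179, 250 and 372 RPKM in FH libraries, and 82.5 and 84.2 RPKM with Ribo-Zero. Its log2 difference of -0.17 turned to 0.14 with upper quartile scaling and to 0.16 on the scale of exon tags, so it has no stable direction. Igfbp7, at chr5:77778265-77837070, encodes a related secreted protein that binds IGFs weakly. It had 8.33, 20.2 and 39.0 RPKM in CCE and 10.2, 18.9 and 29.8 RPKM in FH libraries. With Ribo-Zero it was at 0.89 RPKM in CCE (0.605 to 1.26, 31 tags) and 6.45 RPKM in FH (5.82 to 7.14, 379 tags), a ratio of 7.25 with a counting interval of 5.02 to 10.8. Igfbp7 was the member that fell most with Ribo-Zero in CCE, with a RiboMinus level 22.6 times the Ribo-Zero level. In FH this factor was 3.09 for Igfbp7 and also 3.09 for Igfbp4, so Igfbp7 did not stand out there.

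Igf2bp1, at chr11:95818477-95867254, is an oncofetal gene whose protein holds bound mRNAs stable. It stood at 33.8, 62.4, 63.1 and 57.6 RPKM in CCE1s, CCE1h, CCE2s and CCE2h and at 8.80, 11.5 and 11.2 RPKM in FH1s, FH1h and FH2h. Every CCE library, from 33.0 to 76.5 RPKM, was above every FH library, from 8.64 to 13.2 RPKM. The means were 54.2 ± 13.8 (SD, n = 4) and 10.5 ± 1.47 RPKM (SD, n = 3), 5.16-fold higher in CCE, and the Ribo-Zero levels of 63.5 RPKM (62.6 to 64.5) and 9.31 RPKM (9.04 to 9.59) differed 6.82-fold. Its intronic density as a share of coding density was 1.04% to 2.17% in CCE and 3.83% to 4.59% in FH, and 1.79% and 7.01% with Ribo-Zero. This share also lay wholly higher in the FH preparations for Igf2, Igf1 and Igf1r, so for 4 of the 9 coding members, and overlapped for the 5 binding proteins. Of 9207 coding genes with introns that passed the filter, 37.3% lay wholly higher and 1.28% wholly lower in FH, so the members were near the background, and nothing is read from their count. The smaller share of tags in exons in FH libraries, given above, went along with this, and its part was not tested.

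**Figure D4:**
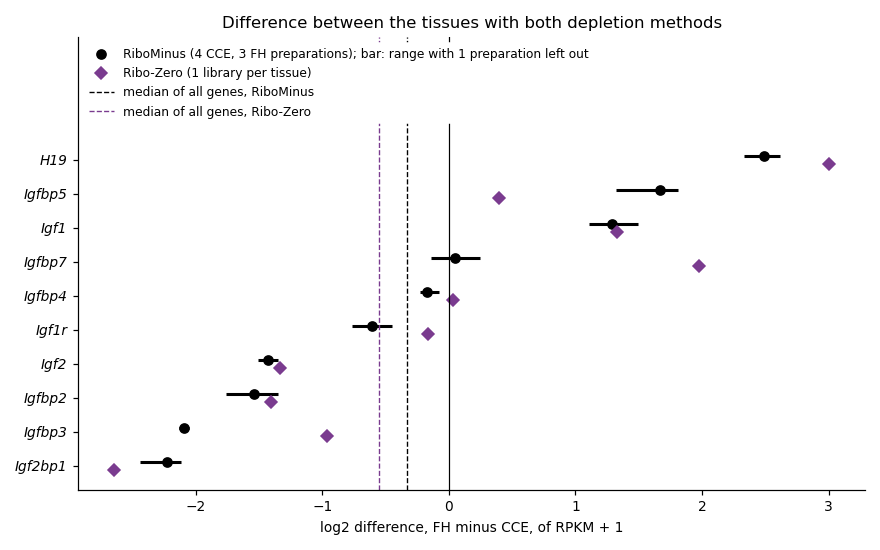
Log2 difference of RPKM + 1, FH minus CCE, of each gene in RiboMinus preparations (black circles, bars for the range when 1 preparation is left out) and in the single pair of Ribo-Zero libraries (purple diamonds), with dashed lines at the median of all genes, -0.33 and -0.55. H19 had the highest difference with both methods, 2.49 and 3.01, and Igf2bp1 the lowest, -2.23 and -2.65, while Igfbp5, Igfbp3 and Igfbp7 differed most between the methods.

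By mean RiboMinus level, the order in CCE was Igf2, Igfbp2, Igfbp4, Igfbp3, Igf2bp1, H19, Igf1r, Igfbp7, Igfbp5 and Igf1. Neighbours overlapped over the 4 preparations at Igf2 and Igfbp2, and in each step from Igf2bp1 to Igfbp5, and were apart elsewhere. In FH the order was Igf2, Igfbp4, H19, Igfbp2, Igfbp5, Igfbp3, Igfbp7, Igf1r, Igf1 and Igf2bp1. Here the preparations of Igfbp4, H19 and Igfbp2 overlapped in turn, as did Igfbp7 with Igf1r and Igf1 with Igf2bp1. In the RiboMinus preparations H19 thus moved from the middle of the order in CCE to the top 3 in FH, and Igf2bp1 to the end. With Ribo-Zero the order differed, since H19 already followed Igf2 and Igfbp2 in CCE, and Igf2bp1 lay above Igfbp7 and Igf1 in FH.

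The method of fragmentation was not part of the rule that chose the members, although they were proposed with earlier results of these data known. It was tested over all genes with limma, which compared 4 hydrolysed with 3 sheared preparations with tissue as a covariate. Igf1 was higher after hydrolysis, with a log2 difference of 0.58 (SE 0.16, adjusted p = 0.0163), while Igfbp2 with -0.67 (SE 0.15, adjusted p = 0.0067) and Igfbp7 with -0.59 (SE 0.17, adjusted p = 0.0184) were lower. These are 1 and 2 of 10 members, while of all genes tested 24.9% were higher and 20.0% lower after hydrolysis, so members called in either direction were no more frequent than in the background of 44.9%. Igfbp2 stood at 899 and 652 RPKM in the sheared and 501 and 451 RPKM in the hydrolysed CCE preparations, and at 280 RPKM in the sheared against 170 and 186 RPKM in the hydrolysed FH preparations. With the hydrolysed numbers exchanged, a setting added after seeing the data, the log2 differences stayed at -0.67 for Igfbp2 and -0.62 for Igfbp7, but the adjusted p was 0.0895 and 0.0715, so the calls and not the sizes changed with the numbering. All 3 calls were also lost at each location alone and in CCE alone, that of Igf1 with each position counted once (adjusted p = 0.0531), that of Igfbp7 without CCE1h (adjusted p = 0.0695), and that of Igf1 without CCE1h (adjusted p = 0.054) or FH1s (adjusted p = 0.102). Over 19 alternatives the log2 difference kept its sign, from 0.46 to 0.72 for Igf1, -1.08 to -0.41 for Igfbp2 and -0.84 to -0.44 for Igfbp7. The other 7 members had adjusted p between 0.102 and 0.832, and 6 of them, all but H19, were called in 1 or 2 of 19 alternatives. With each position counted once Igf2 (adjusted p = 0.00397), Igf1r (adjusted p = 0.0405), Igfbp3 (adjusted p = 0.0196) and Igfbp4 (adjusted p = 0.00163) were lower after hydrolysis, with log2 differences of -0.51, -0.46, -0.37 and -0.65. Without CCE1s Igf2 was higher (0.29, adjusted p = 0.0347) and Igf1r lower (-0.47, adjusted p = 0.0109), and without CCE2s Igfbp5 (0.83, adjusted p = 0.0251) and Igf2bp1 (0.57, adjusted p = 0.0131) were higher.

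The density along the genes was compared between the methods of fragmentation. In 7 of the 9 coding members the density of the 3′ UTR relative to the coding exons was higher in every hydrolysed than in every sheared preparation, and in none was it wholly lower. Of 9531 coding genes with a 3′ UTR that passed the filter, 32.5% lay wholly higher and 2.68% wholly lower after hydrolysis, and of the 2804 with at least 10 tags in both parts in every preparation, a minimum added after seeing the data, 45.3% lay wholly higher, as did 6 of the 7 members among them. The same direction was thus the common one over all genes, and no test of the members against them was made. Igfbp4 had 1.53 ± 0.17 (SD, n = 4) after hydrolysis and 0.355 ± 0.0788 (SD, n = 3) after shearing, and Igf2 0.840 ± 0.0832 and 0.450 ± 0.0719. For Igfbp2 the ranges were 0.456 to 0.486 and 0.228 to 0.262. Igf1 and Igf1r overlapped between the methods, with means of 0.129 and 0.113 for Igf1 and of 0.593 and 0.477 for Igf1r. Each of the 7 reached p = 0.0571 in the exact two-sided permutation test, the smallest this design allows, and 0.0714 after adjustment over the 10 ratios tested. For the whole of Igfbp4 the log2 difference was -0.04 (SE 0.14, limma adjusted p = 0.832), and -0.65 (adjusted p = 0.00163) with each position counted once.

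**Figure D5:**
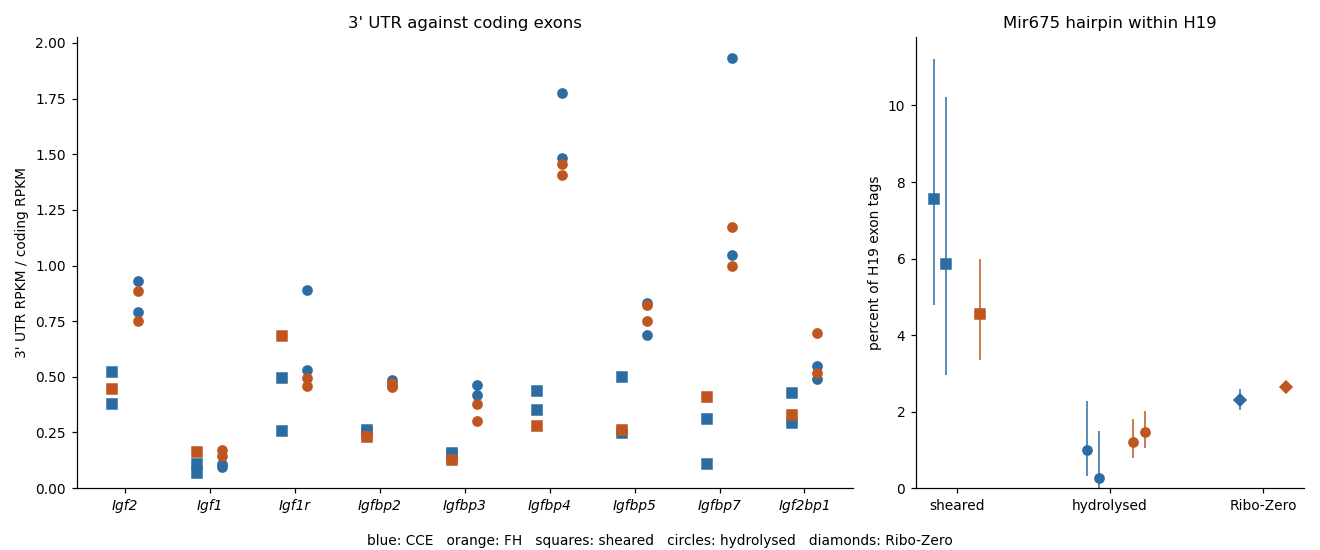
Left, ratio of 3′ UTR to coding RPKM of the 9 coding genes in each RiboMinus preparation, and right, percent of H19 exon tags in the Mir675 hairpin with exact binomial 95% intervals, with CCE in blue, FH in orange, sheared preparations as squares, hydrolysed ones as circles and Ribo-Zero as diamonds. The hydrolysed points lay above all sheared points in 7 of 9 genes, all but Igf1 and Igf1r, as they did in 32.5% of all coding genes, while the hairpin share was 4.55% to 7.56% in sheared and 0.27% to 1.48% in hydrolysed preparations.

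The sequencing location was compared over 7 Vienna-IMP and 7 Nijmegen libraries, with tissue and fragmentation as groups in limma. None of the 10 members was called at an adjusted p under 0.05, against 0.902% of all genes tested, 0.175% higher and 0.727% lower at Vienna-IMP. Only Igfbp7 had an unadjusted p under 0.05, with a log2 difference, Vienna-IMP minus Nijmegen, of -0.60 (SE 0.18, adjusted p = 0.181). Its level at Vienna-IMP was 8.33 to 24.4 RPKM in CCE and 10.2 to 19.6 RPKM in FH, and at Nijmegen 18.96 to 39.0 and 16.0 to 29.8 RPKM. With the cDNA preparation as a block and the hydrolysed numbers exchanged, it was called (adjusted p = 0.0252), and over the 16 alternatives its adjusted p ran up to 0.487. For H19 the difference was 0.08 (SE 0.14, adjusted p = 0.926) and for Igf2 0.26 (SE 0.15, adjusted p = 0.617).

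The other genes of the pathway, 38 in a list of ligands, receptors, binding proteins, proteases, signalling molecules, RNA-binding proteins and regulators of the locus, were tested between the tissues in the limma fit over all genes. The preparations entered as separate samples although some share RNA, so these p-values measure technical spread and are too small for a difference between independent samples. Of these genes, 26 passed the filter, 5 were higher and 9 lower in FH and 12 were not called. These shares of 19.2% and 34.6% were near those of all genes, 20.3% higher and 34.0% lower (54.3% in either direction), and the median log2 difference of the 26 was -0.41 against -0.33. With upper quartile scaling the counts were 6 higher and 6 lower, and of all genes 26.2% were higher and 21.3% lower. CCE had 2 of 4 and FH 1 of 3 preparations sheared. With fragmentation as a covariate the same 5 were higher and 14 were lower, the 9 and also Akt1, Ctcf, Igf2bp3, Pik3ca and Shc1, named after their values were seen, while of all genes 25.8% were higher and 48.1% lower. Leaving out 1 preparation gave 2 to 4 higher genes, with 3 without CCE1s, CCE1h, CCE2s, CCE2h or FH1h and 2 without FH2h, and 5 lower genes without FH1h or FH2h. Of the genes called, Igfbpl1, Igfbp6, Hmga2 and Plag1 passed the filter only through the tissue where they were higher. Their p-values are therefore not independent of the filter.

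Neither insulin gene had a tag in any of the 16 libraries. Ins1 and Ins2, the latter the next gene to Igf2, were thus under the level that 3 tags would give, 0.0765 RPKM for Ins2 in the FH Ribo-Zero library. Of the receptors, Igf2r, which takes up IGF2 for degradation, was at 101 ± 7.72 RPKM (SD, n = 4) in CCE and 26.2 ± 4.84 RPKM (SD, n = 3) in FH, and fell with a log2 difference of -1.92 (SE 0.19, adjusted p = 4.04e-05). Part of it overlaps the antisense gene Airn. The insulin receptor gene Insr rose slightly from 7.09 ± 0.90 to 10.1 ± 0.82 RPKM (log2 difference 0.46, SE 0.17, adjusted p = 0.0463). This call was lost with the hydrolysed numbers exchanged (0.48, adjusted p = 0.0662) and in hydrolysed preparations alone (0.33, adjusted p = 0.0509). With Ribo-Zero Insr had 9.95 RPKM in CCE and 8.19 RPKM in FH, a log2 difference of -0.25 beside the median of -0.55 of all genes in that pair. Insrr stayed below the filter, with 0.776 RPKM in FH.

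Among the other binding proteins Igfbpl1, an IGFBP-like gene, was far higher in FH. It had at most 0.154 RPKM in the CCE preparations and 14.7 to 24.8 RPKM in FH (log2 difference 4.23, SE 0.20, adjusted p = 1e-06), and 0.343 and 24.0 RPKM with Ribo-Zero. Igfbpl1 passed the filter through FH alone. Igfbp6, which prefers IGF2, was at 13.1 ± 2.39 RPKM in CCE and 1.76 ± 1.32 RPKM in FH (log2 difference -2.46, SE 0.33, adjusted p = 0.000289), but with Ribo-Zero at 0.877 RPKM in CCE (0.583 to 1.27, 28 tags) and 0.817 RPKM in FH (0.594 to 1.097, 44 tags), counting intervals that overlap. Igfbp6 passed the filter through CCE alone. Igfbp1 and Igfals stayed below the filter with at most 0.891 RPKM as a mean or Ribo-Zero level in any group. Of the proteases and their inhibitors only Htra1, which cuts IGFBP5, passed the filter. It rose from 5.91 ± 1.41 to 13.8 ± 0.84 RPKM (log2 difference 1.11, SE 0.20, adjusted p = 0.00146). The Ribo-Zero levels were 5.99 and 5.14 RPKM, a log2 difference of -0.19. This was above the median of -0.55 of all genes in that pair.

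Hmga2, a chromatin protein known to act upstream of Plag1 and Igf2, had the largest fall of the list. It was at 21.8 ± 2.50 RPKM in CCE and 2.31 ± 0.45 RPKM in FH (log2 difference -2.79, SE 0.18, adjusted p = 3.81e-06), and at 6.48 and 0.909 RPKM with Ribo-Zero. Hmga2 passed the filter through CCE alone. Plag1, a zinc finger factor of Igf2 promoters, was at 1.80 ± 0.62 and 5.03 ± 2.69 RPKM (log2 difference 1.01, SE 0.35, adjusted p = 0.0377). It passed the filter through FH alone. Its preparations overlapped, with up to 2.59 RPKM in CCE and from 1.93 RPKM in FH. The Ribo-Zero levels of Plag1 were 3.99 RPKM in CCE and 4.97 RPKM in FH. Their log2 difference was 0.26, beside the median of -0.55 of all genes in that pair. The other falls named by size were Irs2, a receptor substrate (log2 difference -1.55, SE 0.42, adjusted p = 0.013), the transcription factor Foxo3 (-1.22, SE 0.26, adjusted p = 0.0036) and Grb10, an imprinted adaptor that restrains the receptors (-0.96, SE 0.19, adjusted p = 0.00276). The adaptor Grb2 rose with a log2 difference of 0.58 (SE 0.17, adjusted p = 0.0199), and had 13.8 RPKM in CCE and 9.02 RPKM in FH with Ribo-Zero, a log2 difference of -0.57 that was near the median of all genes in that pair. The remaining 3 lower genes, Trim28, Zfp57 and Plagl1, named after their values were seen, were not called with upper quartile scaling (adjusted p 0.11 to 0.207), and Plagl1 had the opposite order with Ribo-Zero, 10.96 RPKM in CCE and 15.02 RPKM in FH (log2 difference 0.42). Of the kin of Igf2bp1, Igf2bp2 was not called, with 4.61 ± 1.08 and 4.27 ± 0.50 RPKM (adjusted p = 0.768), while its Ribo-Zero levels were 20.0 RPKM in CCE and 7.28 RPKM in FH. Igf2bp3 was at 22.8 ± 6.85 and 14.3 ± 5.65 RPKM (adjusted p = 0.12), and was called lower with fragmentation as a covariate (log2 difference -0.81, adjusted p = 0.000476) and in hydrolysed preparations alone (-0.68, adjusted p = 0.000803), with Ribo-Zero levels of 32.7 and 13.6 RPKM.

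Genes most like H19 over the 16 libraries, by Pearson correlation of log2(RPKM + 1) among genes that passed the filter, were Col5a2 (r = 0.99), Prkar2b (0.98), Col11a1 (0.97), Svil (0.96) and 9030425E11Rik (0.96). Col5a2 encodes a fibrillar collagen and had 0.997 RPKM in CCE and 7.80 RPKM in FH with RiboMinus and 5.76 and 34.9 RPKM with Ribo-Zero. Like H19 it was higher both in FH and with Ribo-Zero, which follows from its choice by this correlation. All the genes named as like H19 passed the filter through FH alone. The genes most like Igf2 were Kat5 (0.98), Lpcat3 (0.97), Larp1 (0.97), Trp53 (0.97) and Ctsa (0.97). Ctsa, a lysosomal protease gene, had 80.5 RPKM in CCE and 22.6 RPKM in FH with RiboMinus and 18.6 and 7.99 RPKM with Ribo-Zero. The libraries share tissue, RNA and method, so these values describe likeness across 4 groups of libraries rather than 16 independent samples. In the mesenchyme and skeleton list, which contains the collagen genes Col1a1, Col1a2 and Col2a1, the summed level was 80.2 to 138 RPKM in the CCE and 417 to 441 RPKM in the FH preparations, and that of the skeletal muscle list 21.7 to 32.6 and 121 to 185 RPKM. In CCE most of the first sum was Twist1 with 51.9 to 103 RPKM, which was not called between the tissues (limma adjusted p = 0.824). Nearly all of the second was Acta1 with 21.7 to 32.6 RPKM, while Myod1, Myog and Myh3 were at 0. The part of the cell types of these lists in the level of H19 was not tested.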

How the data were processed

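RNA of CCE cells and FH was depleted of ribosomal RNA, and 14 RiboMinus and 2 Ribo-Zero libraries were used. The authors aligned the reads with Bowtie to mm9, per the submitters' processing notes, and deposited 1 line per uniquely aligned tag with its start, end and a constant score, which was not used. Tags over splice junctions were not aligned, and the RiboMinus files hold no mitochondrial tags. In the Ribo-Zero files such tags make up 8.23% of the unique tags in CCE and 4.54% in FH. They were kept in the totals for RPKM, so the totals of the 2 methods are not alike. A further 8 samples of the labels were not analysed here. A tag was given to a gene where its midpoint lay in the merged exons, for 26212 genes of GENCODE M1 (mm9) and without strand, and RPKM was computed from these counts and all unique tags of a library or preparation, which numbered 1888761 to 4322418 for a RiboMinus preparation. The members and all gene lists were chosen with earlier results of these data known.

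The limma package (3.58.1, R 4.3.3) was used for differences across genes, with log2(RPKM + 1), a trended variance and Benjamini-Hochberg adjustment. Genes whose mean RPKM exceeded 3 in CCE or FH entered, and the procedure was tested on simulated data. Tissue and depletion method came from the labels, and the fragmentation and cDNA preparation of each library from the study's list of sequencing lanes. The protocol in the labels describes RNA hydrolysis for all RiboMinus libraries, so which were sheared rests on that list alone. Per the study, sheared and hydrolysed preparations of the same number share depleted RNA, and both locations share cDNA. The deviations of CCE1s and CCE1h had a correlation of -0.14 across 10858 genes, but this uses numbers that may be exchanged and is no test of the pairing. Locations were summed for each preparation when tissues and fragmentation were compared. The members were described in every library. The rule for other named genes took every ligand, receptor, binding protein and RNA-binding protein of the pathway list, its 6 largest changes in each direction and the 5 genes most like H19 or Igf2. For single ratios the exact two-sided permutation test was used, with preparations exchanged freely across tissue and shared RNA. Counting intervals (95%) are exact, Poisson for levels and binomial for shares. Alternatives were another pseudocount, filters, scalings, counting each position once, single locations or methods, replicate blocks, exons without bases of other genes, and leaving out each preparation. Exchanging the hydrolysed numbers was added after seeing the data. The rest was done in Python 3.11.15 (scipy 1.17.1, pandas 2.3.3, numpy 2.4.6), and plots with matplotlib 3.10.9.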

Additional observations from a re-analysis of the deposited data

Results flagged for a closer look

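H19 in the FH2h library of Vienna-IMP stood apart from the other FH RiboMinus libraries. Its level was 297 RPKM, while the next highest of the 6 libraries had 238 RPKM, a gap of 0.718 of the whole range. Of 20 groups of libraries examined in this way, 10 genes in 2 tissues, this was the 1 flagged, and chance flags about 1 in 20 groups. All 6 FH libraries were far above the highest CCE library.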

How the results depend on the processing

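Between the tissues 5892 genes were called, 3408 with a mean RPKM over 10, 4187 at Nijmegen alone, 8016 with fragmentation as a covariate, 8221 in hydrolysed preparations and 4909 to 6017 when 1 preparation was left out. Between the methods of fragmentation 4877 genes were called, 2943 with a mean RPKM over 10, where fewer genes were tested. With fewer libraries the count was 1258 at Vienna-IMP alone, 1487 in CCE alone and 2834 to 5954 when 1 preparation was left out, the lowest without FH1s. Between locations 98 genes were called, 58 with no filter, 63 with a mean RPKM over 10, 22 in hydrolysed libraries and 23 to 95 when 1 preparation was left out, with 23 without FH2h, 41 without CCE1h, 48 without CCE2h and 49 without FH1s. The pathway genes called higher numbered 3 at Vienna-IMP or Nijmegen alone and 2 to 4 when 1 preparation was left out, and those called lower 14 with fragmentation as a covariate or in hydrolysed preparations and 5 to 9 when 1 preparation was left out.

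With a replicate block for the shared depleted RNA or cDNA the counts were 3510 for fragmentation and 85 for location, and the calls of Igf1, Igfbp2 and Igfbp7 did not change. With the hydrolysed numbers exchanged as well, they were 1256 and 195, and the adjusted p of these 3 members for fragmentation were 0.105, 0.322 and 0.237 (limma).

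The log2 difference of H19 between the tissues, 2.49, was 2.80 with upper quartile scaling, 2.83 on the exon tag scale and 1.98 with each position counted once, and 2.33 to 2.61 when 1 preparation was left out. That of Igf2, -1.43, was -1.12, -1.09 and -0.99 under the same settings and -1.51 to -1.35. That of Igfbp4, -0.17, turned to 0.14 and 0.16 under the first 2 scales. That of Igfbp7, 0.05, turned to -0.068 with each position counted once, -0.061 at Nijmegen, -0.015 with exchanged numbers and -0.14, -0.031 and -0.047 without CCE1h, CCE2h and FH1s (-0.14 to 0.25 over the preparations left out). For fragmentation, counting each position once turned H19 to -0.0082 and Igf2 to -0.51, Vienna-IMP alone turned Igfbp3 to 0.25, and Igfbp4 turned to 0.026 on the exon tag scale, 0.047 with exchanged numbers and a block, 0.0038 without CCE1h and 0.089 without CCE2s (-0.13 to 0.089 over the preparations left out). For location, Igfbp2 turned to 0.20 and Igfbp3 to 0.22 in hydrolysed libraries, Igfbp2 to 0.017 to 0.033 without CCE1s, CCE1h, FH1s or FH2h, Igfbp3 to 0.0059 without CCE1s and Igfbp5 to -0.071 without CCE1h. Over the preparations left out these differences ran from -0.22 to 0.033, from -0.24 to 0.0059 and from -0.071 to 0.22. A position can be counted only once per library in that setting, which caps genes with many tags. The cause of the other changes was not tested. Low tag numbers limit Igf1, Igfbp7 and the Mir675 hairpin in the RiboMinus libraries.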
